A study of Mus musculus with 21 samples.

Results

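The integrated stress response and the unfolded protein response were followed through 38 mouse genes. The list was given by symbol, and all 38 were found in each of 3 tables of 15945, 22274 and 16645 genes. It holds the transcription factor gene Atf4, 17 target genes of the ATF4 protein, and 20 genes of the endoplasmic reticulum (ER), mostly chaperones, folding enzymes and stress sensors. All cells came from mice labelled WT and poly(A) RNA was sequenced. The first table holds 3 libraries of untreated bone marrow eosinophils and 3 of untreated bone marrow granulocyte-macrophage progenitors (GMPs), which give rise to granulocytes. The second holds 3 libraries of eosinophils labelled T2, treated with cytokines, and 3 of untreated, resting eosinophils. Each T2 library was labelled with IL-4 and GM-CSF, and IL33, IL34 and IL35 were named for 1 library each; the 3 were kept as 1 group. The third holds bone marrow-derived eosinophils (BMDEs), which were cultured in SCF and FLT3-Ligand at 100 ng/mL and, from day 4, in IL-5 at 10 ng/mL. On day 4 the iron chelator DFO (5 µM, 3 libraries) or the iron source FAC (10 µM, 4 libraries) was added, and 2 control libraries received neither. RNA was taken on day 7. The same culture text stands on all samples, and the isolation of the uncultured cells is not described.

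Cells that meet misfolded protein in the ER, or lack amino acids or heme, slow protein synthesis by phosphorylating the initiation factor eIF2α. The mRNA of ATF4 is then translated more, and the ATF4 protein switches on genes for amino acid synthesis and uptake, for one-carbon metabolism and for feedback on the response itself. In the ER the sensors IRE1 (gene Ern1) and ATF6 raise the chaperones: activated IRE1 splices the mRNA of Xbp1 into the form that encodes an active transcription factor, and ATF6 is cut to release another. XBP1 is required for eosinophil differentiation in mice, and eosinophils make large amounts of granule protein through the ER. The values below are mRNA levels: gene counts separate neither spliced from unspliced Xbp1 nor the translation of Atf4 from its transcription.

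Each library held 16073573 to 28992674 counts. Levels are given as CPM, the counts scaled to library size and TMM factors, and the levels of different genes are compared only per transcript length. Calls rest on edgeR's quasi-likelihood test with an adjusted p under 0.05. The 2 libraries FAC 6 and bone marrow eosinophil 3 stood apart from their groups. In FAC 6 the longest transcripts had a median log2 level of -0.47 relative to the other FAC libraries and the shortest 0.47, and its counts differed from theirs with a chi-square per degree of freedom of 54.1 to 90.8, against 3.03 to 8.85 among the others. FAC 7 deviated the other way, at 0.30 and -0.28 relative to the other FAC libraries, FAC 6 included. Its chi-squares against FAC 5 and FAC 8 were 8.85 and 8.12. Bone marrow eosinophil 3 had a TMM factor of 0.689, against 0.914 to 1.21 in the other libraries of its table, and lay at -182.1 on the first principal component, against -34.0 and -43.3 for eosinophils 1 and 2. Its longest transcripts had a median log2 level of -0.36 relative to the other eosinophil libraries and its shortest 0.47, and eosinophil 1 deviated the other way, at 0.33 and -0.40. Counts of called members are given with and without FAC 6 and eosinophil 3, as are the values of some genes whose call they decide. All 10 eosinophil marker genes were detected in every library labelled eosinophil, but also in every GMP library, so detection does not tell these cells apart. They summed to 94.8 to 254 CPM in GMPs and to 20125 to 36901 CPM in bone marrow eosinophils. In bone marrow eosinophils 11 neutrophil markers summed to 32602 to 195630.0 CPM. The bone marrow eosinophil libraries also carried 39712 to 62895 CPM of 8 progenitor and promyelocyte markers, against 51436 to 61719.7 CPM in GMPs, so markers of other marrow cells were present in these libraries.

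Promoter windows were available for 35 of the 38 genes (RefSeq, GRCm38.p6, from 250 bases before to 50 bases after the gene start) and were searched on both strands for motifs of each response. The ER stress element, read by ATF6 and XBP1, was searched as CCAAT, 9 bases of any kind and CCACG. It was found in 7 of 17 windows of the ER genes and in 0 of 17 of the ATF4 targets, against 0.137% of the 27025 genes with a window. Its second form, ATTGG, 1 base and CCACG, was found in 2 of the 17 ER windows, Herpud1 and Dnajb11, in 0 of the 17 ATF4 target windows, and in 0.0444% of all genes. The C/EBP-ATF response element, read by ATF4 with its partners, was searched as TGATGCAAT and found in Nupr1 and in 0.222% of all genes. Its looser form TGATGNAA, which the stricter one contains, was found in 6 of the 17 ATF4 targets (Chac1, Trib3, Asns, Nupr1, Pck2 and Vldlr), in Herpud1 among the ER genes and in 4.51% of all genes. A further element, TGACGTGG, was found in no member and in 0.714% of all genes. A match describes these letters and is not evidence of binding. The 250 bases before the start of 6 genes follow, 5′ to 3′ along the gene, with matches to any of these motifs in capitals, in either orientation. Hspa5, Hsp90b1 and Creld2 show the ER stress element, Herpud1 the second form beside the looser ATF4 motif, and Asns and Chac1 the looser ATF4 motif; these genes recur in the comparisons below.
Hspa5 (chr2:34771840-34772089, plus strand): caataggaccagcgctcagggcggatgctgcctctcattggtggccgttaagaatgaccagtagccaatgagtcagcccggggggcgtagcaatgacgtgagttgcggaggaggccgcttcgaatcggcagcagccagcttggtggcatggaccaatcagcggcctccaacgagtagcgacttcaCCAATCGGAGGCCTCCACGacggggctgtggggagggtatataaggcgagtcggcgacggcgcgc
Hsp90b1 (chr10:86705445-86705694, minus strand): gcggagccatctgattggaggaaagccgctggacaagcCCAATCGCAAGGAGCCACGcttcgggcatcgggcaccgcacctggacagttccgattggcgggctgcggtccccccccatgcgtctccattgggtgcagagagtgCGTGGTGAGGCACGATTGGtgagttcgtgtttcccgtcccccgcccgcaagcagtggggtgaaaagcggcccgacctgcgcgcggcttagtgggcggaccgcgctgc
Creld2 (chr15:88819396-88819645, plus strand): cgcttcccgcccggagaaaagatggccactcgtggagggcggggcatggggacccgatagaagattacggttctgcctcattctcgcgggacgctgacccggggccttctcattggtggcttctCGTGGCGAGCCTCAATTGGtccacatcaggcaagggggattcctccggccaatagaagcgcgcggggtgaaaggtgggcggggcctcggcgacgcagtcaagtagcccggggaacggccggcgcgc
Herpud1 (chr8:94386179-94386428, plus strand): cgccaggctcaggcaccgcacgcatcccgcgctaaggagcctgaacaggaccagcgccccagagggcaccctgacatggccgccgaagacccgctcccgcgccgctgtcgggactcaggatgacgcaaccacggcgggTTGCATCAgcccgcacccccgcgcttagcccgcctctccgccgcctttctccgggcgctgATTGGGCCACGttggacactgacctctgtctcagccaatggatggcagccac
Asns (chr6:7693210-7693459, minus strand): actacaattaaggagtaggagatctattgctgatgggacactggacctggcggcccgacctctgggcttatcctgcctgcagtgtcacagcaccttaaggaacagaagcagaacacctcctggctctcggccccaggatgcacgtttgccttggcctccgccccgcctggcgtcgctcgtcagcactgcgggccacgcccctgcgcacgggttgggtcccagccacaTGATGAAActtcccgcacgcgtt
Chac1 (chr2:119350992-119351241, plus strand): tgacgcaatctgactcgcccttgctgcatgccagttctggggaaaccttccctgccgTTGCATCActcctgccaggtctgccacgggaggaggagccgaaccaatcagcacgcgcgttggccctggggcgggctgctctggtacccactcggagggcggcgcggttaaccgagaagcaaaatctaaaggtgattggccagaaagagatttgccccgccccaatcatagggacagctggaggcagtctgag

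In the BMDEs genes of both arms of the response were lower with DFO and higher with FAC. Between FAC and DFO BMDEs, 11 of 17 ATF4 targets and 16 of 20 ER genes rose, 0 ATF4 targets and 1 ER gene, Atf6, fell, and the median log2 fold change was 0.64 in the ATF4 targets and 0.71 in the ER genes, against -0.01 over all genes tested. Of all 12607 genes tested, 23.5% were called higher and 24.8% lower with FAC. Against the controls, 6 ATF4 targets and 12 ER genes fell with DFO and 0 rose, with medians of -0.20 and -0.40; 5.12% of all genes were called lower and 6.46% higher. With FAC 7 ATF4 targets and 5 ER genes rose against the controls and 0 fell, with medians of 0.34 and 0.22; 1.76% of all genes were called higher and 4.28% lower. The DFO and FAC comparisons share their 2 control libraries, so they are not independent of each other. In the libraries themselves, Atf4, 7 ATF4 targets and 12 ER genes had every FAC library above and every DFO library below both controls, an order found in 11.5% of all genes tested. Ern1 had the reverse order, found in 13.1% of all genes.

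**Figure D1:**
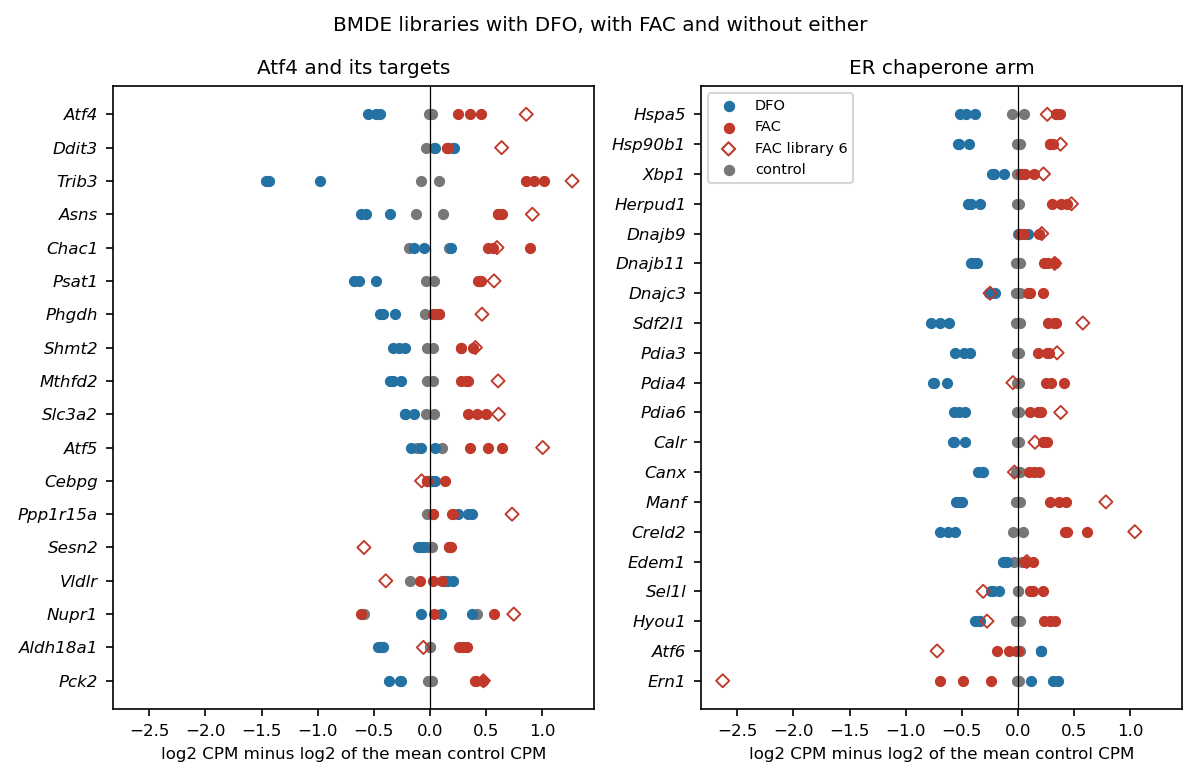
Level of each member in every BMDE library, as log2 CPM minus the log2 of the mean control CPM, for Atf4 and its targets (left) and the ER chaperone arm (right). Points are libraries (DFO n = 3, FAC n = 4 with library 6 as an open diamond, control n = 2); for Atf4, 7 targets and 12 ER genes all FAC points lie to the right and all DFO points to the left of both controls.

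Atf4 had 260.4, 255 and 242 CPM with DFO and 486, 644, 422 and 456 CPM with FAC, against 359 and 352 CPM in controls. All DFO libraries lay below and all FAC libraries above the controls, and FAC 6 was the highest. The gene, at chr15:80255184-80257545 (GRCm38, as for all positions here), had a log2 fold change of 0.99 (adjusted p 0.000325, SE 0.133) between FAC and DFO. Against the controls its changes missed the threshold, at -0.49 (adjusted p 0.0703) with DFO and 0.50 (adjusted p 0.0884) with FAC. Without FAC 6 the log2 fold changes were -0.50 (adjusted p 1.6e-05) with DFO and 0.36 (adjusted p 0.000574) with FAC, both called.

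Among the ATF4 targets, Trib3 (chr2:152337425-152344060), a pseudokinase that feeds back on ATF4, had the largest change. Trib3 had 2.52, 2.57 and 3.52 CPM with DFO and 13.2, 16.7, 12.6 and 14.0 CPM with FAC, against 6.54 and 7.33 CPM in controls. The 3 groups did not overlap, and the log2 fold change of 2.30 (adjusted p 7e-06, SE 0.157) between FAC and DFO was called, as were -1.27 (adjusted p 0.00373) for DFO and 1.02 (adjusted p 0.00859) for FAC against the controls. Asns had 31.0, 26.7 and 25.9 CPM with DFO and 60.4, 74.5, 61.7 and 60.2 CPM with FAC, against 42.8 and 36.4 CPM in controls. Asns (chr6:7675165-7693209), which encodes asparagine synthetase and whose promoter is shown above, was again ordered without overlap, with FAC 6 the highest. It gave a log2 fold change of 1.20 (adjusted p 3.36e-05, SE 0.11) between FAC and DFO, -0.51 (adjusted p 0.0333) with DFO and 0.70 (adjusted p 0.0137) with FAC.

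Psat1, Phgdh, Shmt2 and Mthfd2 encode enzymes of serine synthesis and one-carbon metabolism. Psat1 had 160.5, 139.8 and 144 CPM with DFO and 304, 332, 300.1 and 306 CPM with FAC, against 218 and 229 CPM in controls. Psat1, of serine synthesis, changed by -0.59 with DFO (adjusted p 0.00335), 0.47 with FAC (adjusted p 0.0121) and 1.07 between FAC and DFO (adjusted p 6.94e-06). Phgdh had 109.9, 100.0 and 102 CPM with DFO and 144, 188, 139 and 144 CPM with FAC, against 132 and 140.4 CPM in controls. Phgdh, the first enzyme of serine synthesis, was called only between FAC and DFO when all libraries were fitted (0.57, adjusted p 0.00254). Library FAC 6 lay far above the other FAC libraries, of which the lowest lay below the higher control. Against the controls Phgdh stood at 0.17 with FAC (adjusted p 0.398), and at 0.07 (adjusted p 0.388) without FAC 6. With DFO, Phgdh was called lower against the controls without FAC 6, at -0.40 (adjusted p 5.93e-05). Shmt2 had 99.7, 103 and 108 CPM with DFO and 163, 166, 152 and 151 CPM with FAC, against 128 and 123 CPM in controls. Shmt2, a mitochondrial one-carbon enzyme, was called in each of these comparisons, at -0.27 (adjusted p 0.045) with DFO, 0.34 (adjusted p 0.0299) with FAC and 0.61 (adjusted p 7.42e-05) between FAC and DFO. Its partner in that pathway, Mthfd2, was called only between FAC and DFO (0.71, adjusted p 0.000201). Against the controls Mthfd2 stood at -0.31 (adjusted p 0.084) with DFO and 0.39 (adjusted p 0.0504) with FAC. Without FAC 6 both changes of Mthfd2 were called, at -0.32 (adjusted p 0.000303) with DFO and 0.32 (adjusted p 0.000531) with FAC.

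Pck2 had 48.6, 49.2 and 45.6 CPM with DFO and 81.6, 81.6, 78.0 and 77.4 CPM with FAC, against 59.4 and 58.0 CPM in controls. Pck2, the mitochondrial enzyme that makes phosphoenolpyruvate, fell with DFO (-0.30, adjusted p 0.0283) and rose with FAC (0.44, adjusted p 0.00836), without overlap. Slc3a2 had 226, 225 and 239 CPM with DFO and 372, 402, 332 and 351 CPM with FAC, against 256 and 270.0 CPM in controls. Slc3a2, the heavy chain shared by several amino acid transporters, rose with FAC (0.47, adjusted p 0.0164) and stood at -0.20 with DFO (adjusted p 0.206). Chac1 had 5.49, 6.94 and 5.85 CPM with DFO and 8.94, 9.19, 8.68 and 11.2 CPM with FAC, against 5.34 and 6.82 CPM in controls. Chac1, an enzyme that breaks down glutathione, rose with FAC against controls (0.65, adjusted p 0.0483) and against DFO (0.64, adjusted p 0.0051), and its DFO libraries overlapped the controls. The call against controls was lost with length and GC offsets (0.52 (adjusted p 0.0991)), without a low-count filter, with upper-quartile factors, with only the 2 arms compared, and without any 1 DFO library, FAC 5, FAC 8 or either control. Aldh18a1 had 73.6, 71.3 and 72.7 CPM with DFO and 121, 94.5, 124 and 118 CPM with FAC, against 98.3 and 98.6 CPM in controls. Aldh18a1, of proline synthesis, fell with DFO (-0.44, adjusted p 0.0323), while FAC 6 lay below the controls and the other FAC libraries above them; with FAC it stood at 0.21 (adjusted p 0.259), and without FAC 6 at 0.30 (adjusted p 0.000472). Atf5, a transcription factor of the same family, rose between FAC and DFO (0.72, adjusted p 0.00424).

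The gene for CHOP and that for the eIF2α phosphatase subunit were not called. Ddit3 had 23.2, 20.8 and 23.3 CPM with DFO and 22.4, 31.3, 22.4 and 22.5 CPM with FAC, against 20.6 and 19.6 CPM in controls. Ddit3 encodes CHOP, a transcription factor linked to cell death under prolonged stress; its DFO and FAC libraries overlapped, and FAC 6 stood highest. It was not called with DFO (0.16, adjusted p 0.58), with FAC (0.29, adjusted p 0.267) or between them (0.14, adjusted p 0.406). Ppp1r15a, a subunit of the eIF2α phosphatase, had 39.8, 36.4 and 38.9 CPM with DFO and 35.3, 51.0, 31.2 and 35.2 CPM with FAC, against 30.1 and 31.3 CPM in controls, and was called in none of these comparisons. Without FAC 6 it was called higher with DFO, at 0.32 (adjusted p 0.00348), and lower between FAC and DFO, at -0.16 (adjusted p 0.0391). Cebpg, a dimer partner of ATF4 also not called, had 60.4, 61.0 and 62.3 CPM with DFO and 59.2, 57.2, 59.1 and 66.3 CPM with FAC, against 60.4 and 60.2 CPM in controls. Sesn2, Vldlr and Nupr1 were not called either, at log2 fold changes of 0.10, -0.24 and 0.13 between FAC and DFO. Without FAC 6 Sesn2 was called higher with FAC, at 0.19 (adjusted p 0.0342) against the controls and 0.27 (adjusted p 0.000363) against DFO.

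In the ER arm the main chaperones moved together. Hspa5 had 1060.0, 1000.0 and 964 CPM with DFO and 1788, 1652, 1741 and 1739 CPM with FAC, against 1329 and 1430.0 CPM in controls. Hspa5 (chr2:34772090-34776529) encodes BiP, the HSP70 chaperone of the ER, and its groups did not overlap; it changed by -0.45 with DFO (adjusted p 0.00707), 0.33 with FAC (adjusted p 0.0366) and 0.78 between FAC and DFO (adjusted p 2.31e-05). Hsp90b1 had 1103, 1042 and 1031 CPM with DFO and 1855, 1945, 1818 and 1821 CPM with FAC, against 1483 and 1511 CPM in controls. Hsp90b1 (chr10:86690841-86705444), the ER form of the HSP90 chaperone, changed by -0.50 (adjusted p 0.00363), 0.31 (adjusted p 0.0333) and 0.81 (adjusted p 1.21e-05) in these comparisons. Dnajb11 had 195, 198 and 191 CPM with DFO and 321, 321, 299 and 307 CPM with FAC, against 259.6 and 252 CPM in controls. Dnajb11, a co-chaperone of BiP, was called in each comparison, and Herpud1 had 162, 153 and 150.2 CPM with DFO and 277, 285, 252 and 267 CPM with FAC, against 203 and 207 CPM in controls. Herpud1 (chr8:94386429-94395371), a membrane protein of ER-associated degradation, changed by -0.40 with DFO (adjusted p 0.0106) and 0.40 with FAC (adjusted p 0.0163). The calls of Hspa5, Hsp90b1, Dnajb11 and Shmt2 with FAC against controls were lost with only the 2 arms compared. They were also lost without any 1 DFO library, FAC 5 or FAC 8. That of Herpud1 was lost with only the 2 arms compared and without FAC 5.

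Creld2 had 58.1, 55.6 and 53.0 CPM with DFO and 131, 176, 114 and 116 CPM with FAC, against 83.3 and 88.1 CPM in controls. Creld2, an ER protein induced by ER stress in mouse cells, had the highest log2 fold change of the ER arm between FAC and DFO, 1.27 (adjusted p 0.000129), and FAC 6 was its highest library. Sdf2l1 had 117, 104 and 111 CPM with DFO and 227, 267, 216 and 224 CPM with FAC, against 182 and 177 CPM in controls. Sdf2l1, a partner of Dnajb11, stood at -0.69 with DFO (adjusted p 0.00356), 0.38 with FAC (adjusted p 0.0499) and 1.08 between FAC and DFO (adjusted p 1.6e-05). Its call with FAC against controls lay at the threshold and was lost with length and GC offsets (0.18 (adjusted p 0.203)), without a low-count filter, with upper-quartile factors, with only the 2 arms compared, and without any 1 DFO library, FAC 5, FAC 8 or either control. Manf had 210.2, 206 and 202 CPM with DFO and 399.7, 509.8, 362 and 382 CPM with FAC, against 294 and 299 CPM in controls. Manf, a secreted protein of the ER, reached 1.00 between FAC and DFO (adjusted p 0.000111) and -0.52 with DFO (adjusted p 0.0318). The disulfide isomerase genes rose between FAC and DFO as well. Pdia4 had 311, 287 and 286 CPM with DFO and 640.5, 467, 591 and 574 CPM with FAC, against 484 and 479.5 CPM in controls. For Pdia4, FAC 6 alone of the FAC libraries lay at or below the control level, and its log2 fold changes were -0.71 with DFO (adjusted p 0.00646) and 0.95 between FAC and DFO (adjusted p 9.42e-05). Pdia3 and Pdia6 fell with DFO by 0.49 and 0.52 on the log2 scale and stood at 0.26 and 0.22 with FAC, the last pair not called.

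Calr had 2642, 2462 and 2464 CPM with DFO and 4392, 4073, 4302 and 4281 CPM with FAC, against 3695 and 3642 CPM in controls. Calr, the lectin chaperone calreticulin, fell with DFO (-0.54, adjusted p 0.00316), and with FAC its libraries all lay above the controls by a change that missed the threshold (0.22, adjusted p 0.121). Its membrane-bound relative Canx stood at -0.33 with DFO (adjusted p 0.0282) and 0.10 with FAC (adjusted p 0.434). Xbp1 had 306, 288 and 284 CPM with DFO and 368, 391, 339 and 349 CPM with FAC, against 336 and 332 CPM in controls. Xbp1 (chr11:5520641-5525993) varied over a narrower range: -0.19 with DFO (adjusted p 0.169), 0.12 with FAC (adjusted p 0.378) and 0.31 between FAC and DFO (adjusted p 0.00545). Dnajb9 had 39.0, 41.2 and 39.2 CPM with DFO and 44.1, 44.9, 40.2 and 39.3 CPM with FAC, against 38.9 and 38.7 CPM in controls. Dnajb9, a co-chaperone that represses IRE1 and is known as a target of XBP1, was not called in any BMDE comparison (0.08 between FAC and DFO, adjusted p 0.362). Edem1, which trims sugars of proteins bound for degradation, reached 0.20 between FAC and DFO (adjusted p 0.0142), Dnajc3 0.29 (adjusted p 0.0389), Hyou1 0.52 (adjusted p 0.0104) and Sel1l 0.26 (adjusted p 0.084), which without FAC 6 was called at 0.38 (adjusted p 3.41e-06). The Dnajc3 call was lost with only the 2 arms compared and without any 1 DFO library, FAC 5, FAC 8 or either control. That of Edem1 was lost without DFO 11 or DFO 12.

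The sensor genes Atf6 and Ern1 were not called higher with FAC. Atf6 had 113, 114 and 114 CPM with DFO and 86.7, 59.8, 98.8 and 93.0 CPM with FAC, against 99.9 and 97.3 CPM in controls. Atf6 was lower with FAC than with DFO (-0.43, adjusted p 0.0356), and was not called against the controls, at 0.20 (adjusted p 0.514) with DFO and -0.22 (adjusted p 0.418) with FAC. With length and GC offsets the Atf6 difference between FAC and DFO was -0.04 (adjusted p 0.576), and its call was also lost with only the 2 arms compared and without any 1 DFO library, FAC 5 or either control. Without FAC 6 Atf6 stood at -0.28 (adjusted p 0.000224) between FAC and DFO and was called higher with DFO against controls, at 0.20 (adjusted p 0.012). Ern1 had 62.0, 73.2 and 71.2 CPM with DFO and 40.8, 9.25, 48.4 and 35.3 CPM with FAC, against 56.9 and 57.5 CPM in controls. Unlike those of Atf6, every FAC library of Ern1 lay below and every DFO library above the controls, with FAC 6 lowest by far, and the difference between FAC and DFO missed the threshold (-1.04, adjusted p 0.0554). Without FAC 6 Ern1 was called in all 3 comparisons, at 0.26 (adjusted p 0.0444) with DFO, -0.46 (adjusted p 0.00417) with FAC and -0.71 (adjusted p 4.8e-06) between FAC and DFO.

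Without FAC 6, which also changes the spread shared by the groups, more members were called. With DFO 9 ATF4 targets fell and 1 rose, and 16 ER genes fell and 2 rose, against 20.2% of genes lower and 18.9% higher. The falling genes added with DFO included Xbp1, at -0.20 (adjusted p 0.00909), and Slc3a2, at -0.20 (adjusted p 0.0121). With FAC 11 ATF4 targets and 15 ER genes rose and Ern1 alone fell, against 9.98% of genes higher and 11.7% lower. The targets and ER genes added ran from Dnajc3, at 0.15 (adjusted p 0.0495), to Atf5, at 0.52 (adjusted p 0.00277). Among them were Calr, at 0.25 (adjusted p 0.00328), and Canx, at 0.15 (adjusted p 0.037). Pdia3, at 0.25 (adjusted p 0.00416), and Pdia6, at 0.18 (adjusted p 0.0245), were added as well. Between FAC and DFO 12 ATF4 targets and 17 ER genes rose, and 1 ATF4 target and 2 ER genes fell, against 31.9% of genes higher and 30.7% lower. The calls against the controls rest on the 2 control libraries. Without control 1 or control 2, 1 control is left, so only log2 fold changes are given for those fits. With FAC, Trib3 stood at 0.94 and 1.11 there, and Hspa5 at 0.27 and 0.38. With DFO, Asns stood at -0.39 and -0.62. Calls with DFO were also lost when other single libraries were left out. Shmt2, Pck2 and Creld2 lost theirs without any 1 DFO library, FAC 5 or FAC 8. Asns, Aldh18a1, Herpud1, Canx and Manf lost theirs in some of these fits. For FAC against the controls, the calls of Chac1, Shmt2, Slc3a2, Hspa5, Hsp90b1, Herpud1, Dnajb11 and Sdf2l1 were lost without FAC 5. Herpud1 alone of the ER genes kept its call without FAC 8 or any 1 DFO library. No call was lost without FAC 7. The number of all genes called also varied widely between these fits, as given below, and the share in each fit is not given. Whether the members lost calls more often than other genes was therefore not tested.

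Markers of some cell types also differed between the BMDE groups, in either direction. The summed level of 10 eosinophil markers was 18627 to 22014 CPM with DFO and 57859 to 70002 CPM with FAC, against 42536 to 43485 CPM in controls; 10 of 10 fell with DFO and 5 of 10 rose with FAC. Neutrophil markers (11 genes) summed to 16011 to 17961 CPM with DFO, 6198 to 8879.6 CPM with FAC and 8762 to 10498 CPM in controls. Of these, 7 were called higher and 1 lower with DFO, and 1 higher and 10 lower between FAC and DFO. The 12 markers of plasmacytoid dendritic cells summed to 1462 to 1499.6 CPM with DFO, 393 to 477 CPM with FAC and 768 to 803 CPM in controls. None of these eosinophil, neutrophil and dendritic cell markers was at 0 in any BMDE library. Their part in the changes of Atf4, its targets and the ER genes was not tested, and in bulk RNA fewer cells of a type and less RNA per cell cannot be told apart.

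Genes of the same pathways outside the 38 were counted from lists drawn up beside them. Of 24 tested further ATF4 and CHOP targets, 15 rose and 0 fell between FAC and DFO, and 0 rose and 5 fell with DFO. Over all genes tested 23.5% were called higher and 24.8% lower between FAC and DFO, and 6.46% higher and 5.12% lower with DFO. Slc7a11, the cystine importer that pairs with Slc3a2, had 256 ± 41.8 CPM with FAC and 88.8 ± 4.09 CPM with DFO (SD, n = 4 and 3), a log2 fold change of 1.53 (adjusted p 1.52e-05); with FAC against controls it reached 0.64 (adjusted p 0.0271). Stc2, a secreted glycoprotein, fell with DFO at -1.03 (adjusted p 0.0029). Of 12 aminoacyl-tRNA synthetase genes, which ATF4 also drives, 9 rose between FAC and DFO, led by Tars at 0.72 (adjusted p 5.91e-05) and Gars at 0.68 (adjusted p 4.22e-05). Among other ER folding and disulfide enzymes 16 of 25 rose and 1 fell, and in the translocon, signal peptidase and glycosylation list 21 of 24 rose and 0 fell. ER export and retrieval gave 14 of 16 higher, with Kdelr3, a receptor that returns ER proteins, at 2.49 (adjusted p 8.86e-06). In ER-associated degradation 13 of 22 rose and 1 fell, with Derl3, a degradation channel gene, at 1.46 (adjusted p 0.000201). Of 16 genes of eIF2α kinases, eIF2 and its phosphatase, 9 rose and 1, the kinase gene Eif2ak2, fell (-0.66 (adjusted p 0.000451)).

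In T2 eosinophils nearly the whole ER arm was higher than in resting eosinophils: 19 of 20 genes rose and 1, Dnajb9, fell, with a median log2 fold change of 0.50. Of 16 tested ATF4 targets 9 rose and 3 fell, with a median of 0.61; Chac1 was too low to test. Over the 11345 genes tested, 38.2% were called higher and 37.9% lower, with a median of -0.01. Atf4 had 376, 375 and 394 CPM in T2 eosinophils, against 151, 147 and 162 CPM in resting ones. The groups lay far apart, at a log2 fold change of 1.32 (adjusted p 4.73e-13, SE 0.0474).

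**Figure D2:**
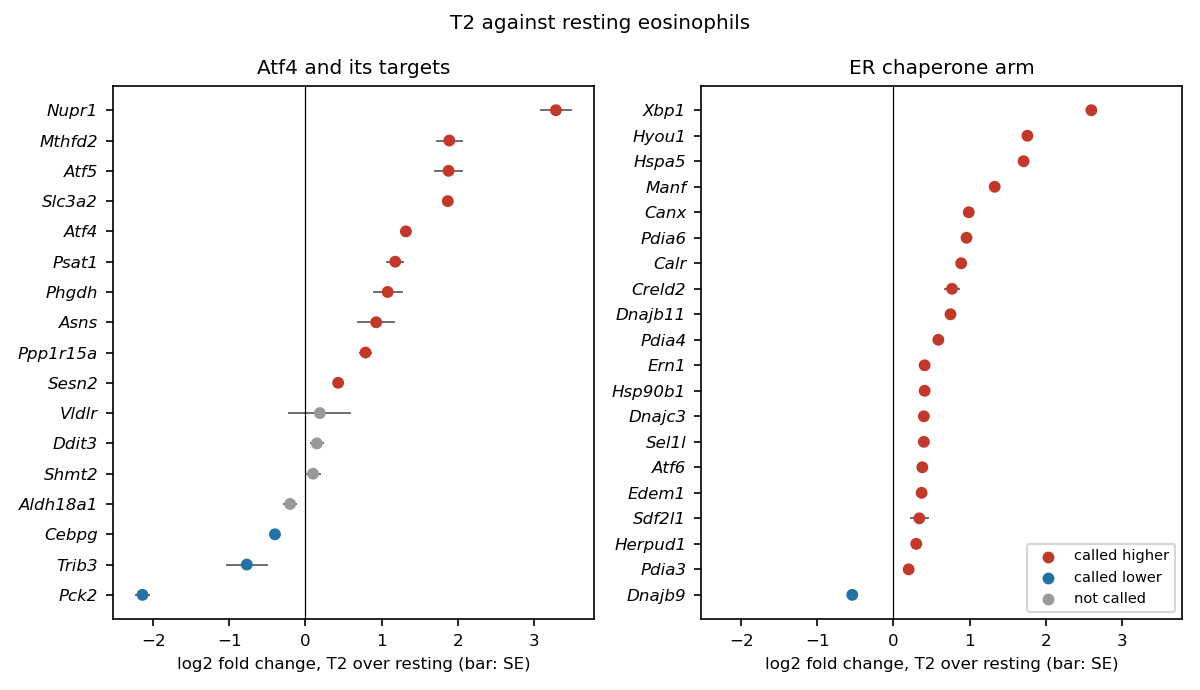
Log2 fold change of T2 over resting eosinophils (n = 3 each) for Atf4 and its 16 tested targets (left) and the 20 ER genes (right), with its SE. Xbp1 at 2.60 and Nupr1 at 3.29 are the highest of their panels, and Dnajb9 and Pck2 the lowest.

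Xbp1 had 1241, 1291 and 1266 CPM in T2 eosinophils, against 205, 201 and 222 CPM in resting ones. Xbp1 had the largest change of the ER arm, a log2 fold change of 2.60 (adjusted p 1.09e-16, SE 0.0462), and its libraries within each group differed little. Hspa5 had 483, 448 and 491 CPM in T2 eosinophils, against 144, 139 and 150.1 CPM in resting ones. For Hspa5 the log2 fold change of 1.71 (adjusted p 2.43e-14, SE 0.0486) was called, as was that of Hyou1, a nucleotide exchange factor of BiP, at 1.76 (adjusted p 4.54e-13). Hyou1 had 138, 127 and 136 CPM in T2 eosinophils, against 39.5, 42.3 and 36.0 CPM in resting ones. Manf had 63.8, 64.5 and 76.2 CPM in T2 eosinophils, against 28.0, 26.7 and 26.8 CPM in resting ones. Manf changed by 1.33 (adjusted p 9.61e-11), with no overlap between the groups. Calreticulin (Calr), calnexin (Canx) and Pdia6 rose by 0.89, 0.99 and 0.96 on the log2 scale. Herpud1 had 274, 262 and 266 CPM in T2 eosinophils, against 226, 223 and 203 CPM in resting ones. Herpud1 rose less, by 0.30 (adjusted p 4.5e-05), and so did Hsp90b1 (0.41), Edem1 (0.37) and Pdia3 (0.20). Of the remaining ER genes Dnajb11 rose by 0.75, Dnajc3 by 0.40, Pdia4 by 0.59, Creld2 by 0.77 and Sel1l, an adaptor of an ER ubiquitin ligase, by 0.40. The call of Pdia3 was lost under upper-quartile scaling.

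Dnajb9 had 25.3, 26.1 and 24.9 CPM in T2 eosinophils, against 36.3, 35.8 and 38.9 CPM in resting ones. Dnajb9 was thus lower in every T2 library, by 0.54 on the log2 scale (adjusted p 1.46e-06). Sdf2l1, at 9.76, 10.8 and 13.7 CPM in T2 eosinophils and 9.32, 9.35 and 8.33 CPM in resting ones, had the weakest evidence of the ER genes (0.34, adjusted p 0.0226) and lost its call in DESeq2, under upper-quartile scaling and without T2 library 3 or resting library 3. The sensor genes Atf6 and Ern1 rose by 0.38 and 0.41 (adjusted p 1.9e-05 and 2.48e-05).

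The ATF4 targets split. Nupr1 had 10.7, 7.78 and 8.56 CPM in T2 eosinophils, against 1.07, 0.766 and 0.925 CPM in resting ones. Nupr1, a small stress-induced nuclear protein whose promoter holds the strict ATF4 motif, rose by 3.29 on the log2 scale (SE 0.213, adjusted p 8.05e-10). Slc3a2 had 584, 563 and 570.5 CPM in T2 eosinophils, against 152, 162 and 154 CPM in resting ones. Slc3a2 rose by 1.87, Atf5 by 1.88 and Mthfd2 by 1.89; Atf5 had 7.98, 8.15 and 8.67 CPM in T2 eosinophils, against 2.08, 2.91 and 1.68 CPM at rest, and Mthfd2 10.6, 10.9 and 12.1 against 3.76, 3.32 and 1.97 CPM. Asns had 2.82, 3.47 and 2.63 CPM in T2 eosinophils, against 1.46, 1.74 and 1.45 CPM in resting ones. Asns, Psat1 and Phgdh rose (0.93, 1.18 and 1.08) from low levels, under 12 CPM in every library, whereas Shmt2 was not called (0.10, adjusted p 0.375).

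Pck2 had 4.42, 4.92 and 4.42 CPM in T2 eosinophils, against 19.7, 20.1 and 21.1 CPM in resting ones. Pck2 fell by 2.14 on the log2 scale (SE 0.102, adjusted p 1.61e-11), with no overlap. Trib3 had 1.17, 1.34 and 1.40 CPM in T2 eosinophils, against 1.85, 2.71 and 2.08 CPM in resting ones. Trib3 fell (-0.77, adjusted p 0.0192), a call lost in DESeq2 (adjusted p 0.0956) and without T2 library 1, T2 library 2 or resting library 2; Cebpg, at 52.2, 53.9 and 54.1 CPM in T2 eosinophils and 70.7, 70.5 and 69.6 CPM at rest, fell by 0.40. Ddit3 had 16.9, 17.3 and 19.5 CPM in T2 eosinophils, against 17.5, 16.2 and 14.9 CPM in resting ones. Ddit3 was not called (0.15, adjusted p 0.153) and its groups overlapped, while Ppp1r15a and Sesn2, a sensor of amino acids that restrains mTOR, rose by 0.79 and 0.43. Aldh18a1 and Vldlr, a lipoprotein receptor, stood at -0.20 (adjusted p 0.0576) and 0.19 (adjusted p 0.682). Chac1, untested, had 0.429, 0.182 and 0.168 CPM in T2 eosinophils and 1.18, 1.07 and 0.463 CPM in resting ones.

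Of 21 tested further ATF4 and CHOP targets 14 rose and 5 fell in T2 eosinophils, against 38.2% of all genes called higher and 37.9% lower. Slc7a11 had 1519 ± 199.6 CPM in T2 and 51.3 ± 2.86 CPM in resting eosinophils (SD, n = 3 each), a log2 fold change of 4.89 (adjusted p 1.18e-16). Ero1l, the ER oxidase that is also a hypoxia target, had 2133 ± 194 CPM in T2 and 207 ± 5.99 CPM in resting eosinophils, at 3.37 (adjusted p 1.04e-16). Among tRNA synthetases 9 of 12 rose and 2 fell, with Iars at 1.76 (adjusted p 2.85e-12). The translocon list gave 20 of 24 higher and 2 lower, ER export 14 of 16 and 1, other folding enzymes 12 of 22 and 6, and ER-associated degradation 13 of 21 and 4; P4hb, a disulfide isomerase, reached 1.91 (adjusted p 6.3e-16). Of the eIF2 list 8 of 16 rose and 5 fell, with Eif2s1, which encodes eIF2α, at 1.46 (adjusted p 6.1e-13). The eIF2 list and the other folding enzymes lay nearest to the shares of all genes. Monocyte and macrophage markers summed to 6347 to 6599 CPM in T2 eosinophils and 2456 to 2548 CPM in resting ones, with 4 of 10 called higher and 3 lower. Eosinophil markers summed to 6082 to 6210.3 CPM in T2 eosinophils and 7495 to 7854 CPM in resting ones, with 2 of 10 called higher and 7 lower. Neutrophil markers summed to 1262 to 1322 CPM in T2 eosinophils and 2478 to 2700.1 CPM in resting ones, with 1 of 11 called higher and 7 lower. Their part in the changes of the members was not tested.

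In bone marrow eosinophils 0 of 20 ER genes rose and 7 fell relative to GMPs, with a median log2 fold change of -0.59. Of the 17 ATF4 targets 3 rose and 3 fell, with a median of 0.00. Over the 12214 genes tested 13% were called higher and 6.78% lower, with a median of 0.01. Atf4 had 107, 105 and 125 CPM in bone marrow eosinophils, against 118, 108 and 88.0 CPM in GMPs. The groups overlapped and Atf4 was not called (0.10, adjusted p 0.701).

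**Figure D3:**
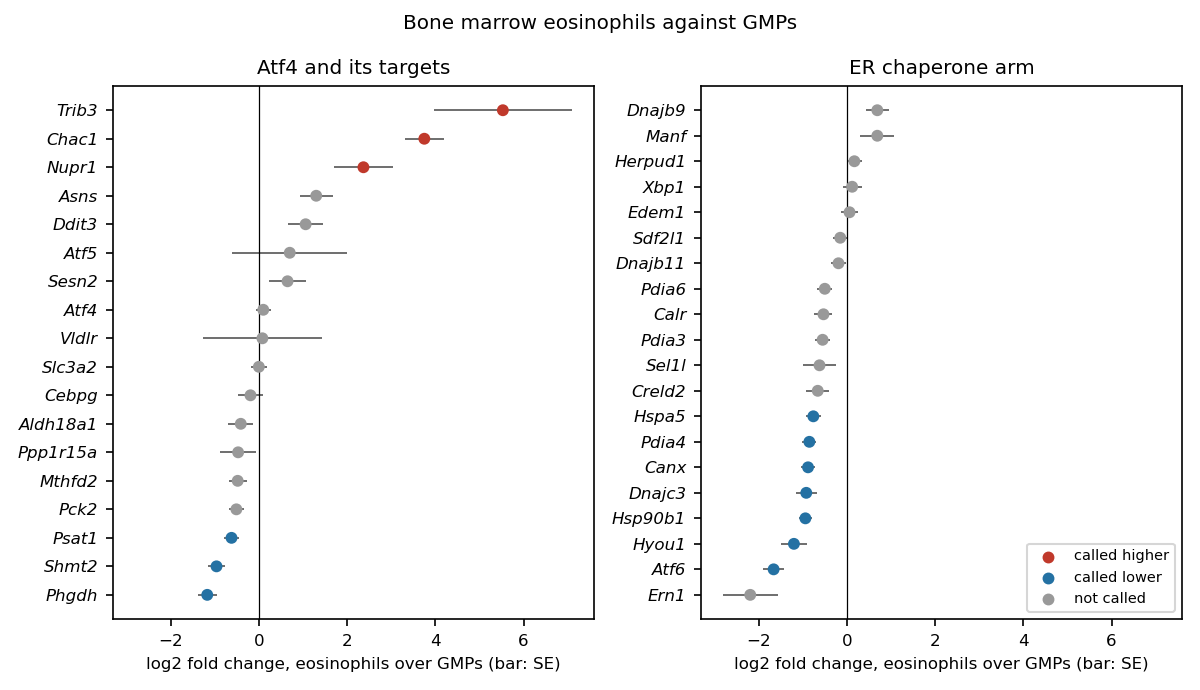
Log2 fold change of bone marrow eosinophils over GMPs (n = 3 each) for Atf4 and its 17 targets (left) and the 20 ER genes (right), with its SE. Trib3, Chac1 and Nupr1 are called higher at 5.53, 3.75 and 2.37, and Atf6, at -1.66, is the lowest called ER gene.

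Chac1 had 9.30, 12.4 and 9.71 CPM in bone marrow eosinophils, against 0.721, 0.673 and 0.927 CPM in GMPs. Chac1 had the firmest rise, a log2 fold change of 3.75 (adjusted p 0.00242, SE 0.445), and remained called in every alternative run. Trib3 had 0.472, 0.730 and 6.68 CPM in bone marrow eosinophils, against 0.0601, 0 and 0.0959 CPM in GMPs. Eosinophil 3 carried most of the Trib3 signal; the log2 fold change of 5.53 (adjusted p 0.0495, SE 1.57) stood at 3.42 (adjusted p 0.041) without it. The Trib3 call was lost with length and GC offsets, without a low-count filter, with a replicate block, with upper-quartile factors, and without GMP 1, GMP 2, GMP 3 or eosinophil 2, at adjusted p values of up to 0.185. Nupr1 had 1.49, 1.57 and 1.68 CPM in bone marrow eosinophils, against 0.300, 0.320 and 0.288 CPM in GMPs. Nupr1 rose by 2.37 (adjusted p 0.0474), a low-level gene whose call was lost in all alternatives but DESeq2 and the fit without eosinophil 3. Asns had 44.1, 88.2 and 39.0 CPM in bone marrow eosinophils, against 24.6, 16.6 and 28.1 CPM in GMPs. All eosinophil libraries of Asns lay above all GMPs, and its change of 1.30 missed the threshold (adjusted p 0.0519). It was called in DESeq2, at 1.27 (adjusted p 0.0111), and without eosinophil 3, at 1.51 (adjusted p 0.00767). Ddit3 had 11.6, 10.2 and 21.8 CPM in bone marrow eosinophils, against 7.84, 6.67 and 6.42 CPM in GMPs. Ddit3 was not called (1.06, adjusted p 0.103), with eosinophil 3 the highest. Without eosinophil 3 it stood at 0.64 (adjusted p 0.082), in DESeq2 it was called at 1.03 (adjusted p 0.039), and with length and GC offsets it was -0.20 (adjusted p 0.697).

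Phgdh, Shmt2 and Psat1, of serine and one-carbon metabolism, were the 3 ATF4 targets called lower in eosinophils. Phgdh had 302, 382 and 251 CPM in bone marrow eosinophils, against 728, 586 and 792 CPM in GMPs. Phgdh fell by 1.17 on the log2 scale (SE 0.217, adjusted p 0.0128). Shmt2 had 206, 205 and 146 CPM in bone marrow eosinophils, against 373, 338 and 372 CPM in GMPs. Psat1 had 103, 128 and 117 CPM in bone marrow eosinophils, against 189.9, 150.2 and 194 CPM in GMPs. Shmt2 and Psat1 fell by 0.96 and 0.62 (adjusted p 0.015 and 0.047). Slc3a2 and Cebpg overlapped between the groups, and Mthfd2 and Pck2 stood at -0.48 and -0.51 without a call. The other ATF4 targets were not called either, with Sesn2 at 0.65, Ppp1r15a at -0.47, Atf5 at 0.70, Aldh18a1 at -0.41 and Vldlr at 0.08.

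Hspa5 had 1013, 1040.0 and 897 CPM in bone marrow eosinophils, against 1802, 1460.0 and 1750.0 CPM in GMPs. Hspa5 fell by 0.76 (adjusted p 0.0232), with no overlap. The call was lost with a replicate block and without any 1 GMP library or eosinophil 2. Hsp90b1 had 715, 711 and 753 CPM in bone marrow eosinophils, against 1500.0, 1341 and 1349 CPM in GMPs. Hsp90b1 fell by 0.94 (adjusted p 0.00733), and Canx and Pdia4 by 0.88 and 0.85. Dnajc3 had 152, 159.9 and 93.6 CPM in bone marrow eosinophils, against 267, 219 and 279 CPM in GMPs. Dnajc3, a co-chaperone that inhibits the eIF2α kinase PERK, fell by 0.92 (adjusted p 0.039). Its call was lost with length and GC offsets, with a replicate block, and without any 1 GMP library, eosinophil 1 or eosinophil 2. Atf6 had 31.9, 29.1 and 18.5 CPM in bone marrow eosinophils, against 87.4, 84.1 and 79.8 CPM in GMPs. Atf6 fell by 1.66 (adjusted p 0.00499) and Hyou1, at 76.5, 83.5 and 39.8 CPM in eosinophils and 171, 154 and 136 CPM in GMPs, by 1.20. The other sensor gene, Ern1, had 19.3, 16.8 and 3.42 CPM in eosinophils, against 57.3, 83.7 and 40.4 CPM in GMPs (-2.19, adjusted p 0.0503). Xbp1 had 492, 498 and 337 CPM in bone marrow eosinophils, against 414, 342 and 464 CPM in GMPs. Xbp1 was not called (0.12, adjusted p 0.721). Herpud1 had 231, 191 and 183 CPM in bone marrow eosinophils, against 206, 161 and 172 CPM in GMPs. Dnajb9 had 46.5, 48.3 and 76.8 CPM in bone marrow eosinophils, against 38.6, 39.4 and 28.3 CPM in GMPs. Neither Herpud1 (0.17) nor Dnajb9 (0.69) was called (adjusted p 0.525 and 0.11), though every eosinophil library of Dnajb9 lay above every GMP library. The ER genes left were not called, with Calr at -0.53, Pdia3 at -0.55, Pdia6 at -0.50, Manf at 0.69, Creld2 at -0.66, Sdf2l1 at -0.15, Dnajb11 at -0.19, Edem1 at 0.06 and Sel1l at -0.62.

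Without eosinophil 3, 5 ATF4 targets rose and 4 fell and 10 ER genes fell, with 20.1% of all genes called higher and 16.4% lower. The targets added were Asns, Sesn2, at 0.92 (adjusted p 0.0367), and Mthfd2, at -0.58 (adjusted p 0.0402), and the ER genes Pdia3, at -0.51 (adjusted p 0.0376), Pdia6, at -0.62 (adjusted p 0.0145), and Ern1, at -1.75 (adjusted p 0.00297). Without GMP 1, GMP 2, GMP 3 or eosinophil 2, Hspa5, Dnajc3, Pdia4 and Hyou1 lost their calls. Canx lost its call without GMP 1 or GMP 3, and Hsp90b1 without GMP 1. Of the rising ATF4 targets Chac1 alone kept its call in each of these fits. Phgdh lost its call without GMP 1 or GMP 3, and Shmt2 and Psat1 without any 1 GMP library. The number of all genes called also varied widely when 1 library was left out, as given below, and the share in each fit is not given. Whether the members lost calls more often than other genes was therefore not tested. In the bone marrow eosinophil libraries 11 neutrophil markers summed to 32602 to 195630.0 CPM, against 73.2 to 97.1 CPM in GMPs, and 10 eosinophil markers to 20125 to 36901 CPM, against 94.8 to 254 CPM; all 11 and all 10 were called higher, and eosinophil 3 had the highest neutrophil sum. Erythroid markers summed to 1103 to 2335 CPM in eosinophils and 13.3 to 17.9 CPM in GMPs, with 9 of 9 called higher, and mast cell and basophil markers to 1389 to 2618 CPM in eosinophils and 139.5 to 375 CPM in GMPs, with 6 of 6 higher. B lineage markers summed to 316 to 610.5 CPM in eosinophils and 46.9 to 70.5 CPM in GMPs, with 8 of 10 higher and 0 lower, and monocyte and macrophage markers to 3681 to 5431 CPM in eosinophils and 4171 to 4994 CPM in GMPs, with 7 of 11 higher and 3 lower. Their part in the changes of the members was not tested. Among the wider lists, set beside 13% of all genes called higher and 6.78% lower, 4 of 12 tRNA synthetases fell and 0 rose, with Iars at -1.37 (adjusted p 0.00924), and 1 of 25 other ER folding enzymes rose and 4 fell, with Txndc5, a disulfide isomerase, at -2.28 (adjusted p 0.000871). Of 22 further ATF4 and CHOP targets 3 rose and 4 fell, with Ddit4, an mTOR inhibitor, at 2.96 (adjusted p 0.0321) and Slc7a1, an arginine transporter, at -1.62 (adjusted p 0.00235). In ER-associated degradation 3 of 22 rose, 3 of 24 translocon genes fell, 1 of 15 ER export genes fell and 1 of 16 genes of the eIF2 list fell. Of these shares, those higher among further ATF4 and CHOP targets and in ER-associated degradation, and those lower in ER export and the eIF2 list, were near those of all genes.

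Levels per transcript length, as the FPKM values that the authors deposited, place the 7 groups beside each other. The tables were normalized separately, so no test runs across them. They also differ in count type, and the tool behind each is not given. Differences between groups of different tables therefore cannot be told apart from differences in processing. Calr, a chaperone of glycoproteins, had mean FPKM values (± SD) of 677 ± 253 in bone marrow eosinophils, 1293 ± 135 in GMPs, 113 ± 6.83 in T2 eosinophils, 71.0 ± 2.48 in resting eosinophils, 1579 ± 56.2 in DFO BMDEs, 2442 ± 147 in FAC BMDEs and 2233 ± 10.3 in control BMDEs. Every BMDE group had a higher mean than the T2 and resting eosinophils. Hspa5 had mean FPKM values of 367 ± 93.6 in bone marrow eosinophils, 833 ± 68.5 in GMPs, 165 ± 13.3 in T2 eosinophils, 60.8 ± 6.16 in resting eosinophils, 464 ± 20.2 in DFO BMDEs, 729 ± 42.9 in FAC BMDEs and 618 ± 35.5 in control BMDEs. Xbp1 had mean FPKM values of 193 ± 70.4 in bone marrow eosinophils, 233 ± 27.7 in GMPs, 582 ± 12.6 in T2 eosinophils, 111 ± 6.28 in resting eosinophils, 155 ± 5.35 in DFO BMDEs, 175 ± 5.92 in FAC BMDEs and 172 ± 0.615 in control BMDEs, highest in T2 eosinophils, where Calr and Hspa5 were below every BMDE group. Atf4 had mean FPKM values of 74.7 ± 9.42 in bone marrow eosinophils, 96.0 ± 15.6 in GMPs, 205 ± 8.71 in T2 eosinophils, 95.9 ± 4.46 in resting eosinophils, 189 ± 8.47 in DFO BMDEs, 351 ± 69.7 in FAC BMDEs and 256 ± 1.14 in control BMDEs. Asns had mean FPKM values of 28.7 ± 15.7 in bone marrow eosinophils, 15.3 ± 3.48 in GMPs, 1.38 ± 0.189 in T2 eosinophils, 0.833 ± 0.0916 in resting eosinophils, 17.3 ± 1.60 in DFO BMDEs, 36.3 ± 2.68 in FAC BMDEs and 23.8 ± 2.60 in control BMDEs, lowest in the T2 and resting eosinophils, and Ddit3 had means of 14.9 ± 2.67 in bone marrow eosinophils, 8.60 ± 0.543 in GMPs, 19.6 ± 1.45 in T2 eosinophils, 19.9 ± 1.75 in resting eosinophils, 32.7 ± 2.71 in DFO BMDEs, 31.9 ± 6.27 in FAC BMDEs and 27.8 ± 0.813 in control BMDEs. Between bone marrow eosinophils and GMPs, FPKM and CPM put Atf4 and Xbp1 in opposite order, with overlapping libraries in both units.

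**Figure D4:**
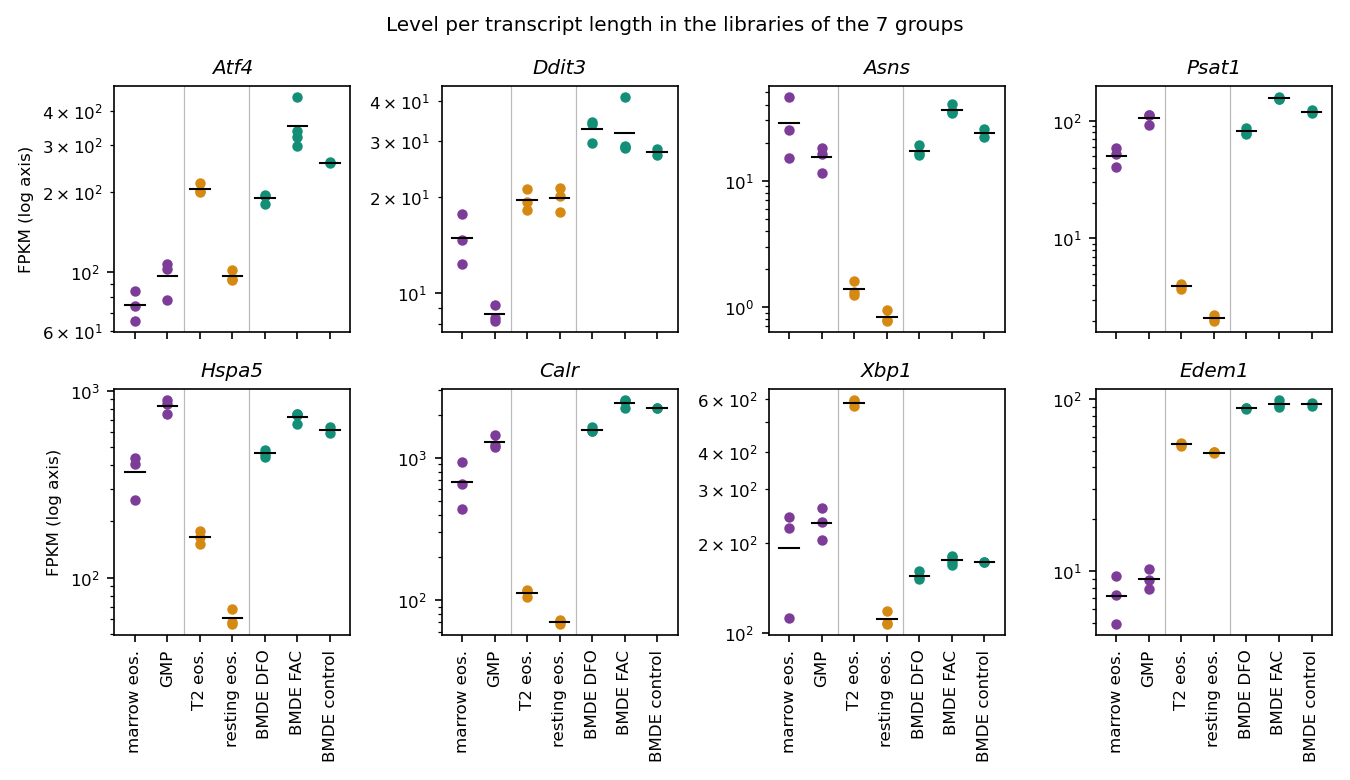
FPKM of 8 members (log axis) in every library of the 7 groups, paired as compared; points are libraries, black lines are group means, and colours mark the 3 tables. Asns and Psat1 are lowest in T2 and resting eosinophils, and Xbp1 is highest in T2 eosinophils.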

How the data were processed

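Bulk RNA-seq of 21 mouse libraries was used in 3 gene tables. The authors deposited estimated counts (expected counts), FPKM and TPM for the tables of eosinophils with GMPs and of BMDEs, and whole read counts, FPKM, log2 ratios and p-values for that of T2 and resting eosinophils, per the file headers. The deposited TPM, log2 and p-value columns were not used. The submitters' processing notes name RSEM, StringTie 1.3.1, HISAT2, Bowtie2 2.2.8 and fastp 0.18.0 with the mm10 build; which tool made which column is not given in the sources used here.

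Fractional counts were rounded to whole numbers. Tables were fitted apart with edgeR 4.0.16 in R 4.3.3 (filterByExpr, TMM factors, two-sided quasi-likelihood F test, Benjamini-Hochberg adjustment over all genes tested); the 9 BMDE libraries shared 1 fit. The code was checked on simulated data. Alternatives were DESeq2 1.42.0, upper-quartile factors, no filter, length and GC offsets (mgcv 1.9.3), a replicate block, only the 2 arms compared, and leaving out each library. Totals of 16073573 to 28992674 counts limit low genes by counting error. Nothing in the labels says that libraries of a group came from separate animals or cultures, so p-values measure the spread between these libraries, which may be technical. Same-numbered libraries of eosinophils and GMPs deviated together with r of 0.012, 0.005 and 0.119, and of T2 and resting eosinophils with -0.009, -0.022 and 0.033, so the numbers were not taken to pair them.

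The 38 genes and the lists were chosen with earlier results of these data known. Values in every library were given for Atf4, Ddit3, Trib3, Asns, Hspa5, Xbp1, Herpud1 and Dnajb9 and for the 4 called members of each arm with the largest change in each direction; of each wider list at most 2 called genes were named. Gene positions and promoters are from RefSeq, and transcript lengths and GC content from GENCODE M21, both GRCm38.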

Additional observations from a re-analysis of the deposited data

Results flagged for a closer look

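In the 4 FAC BMDE libraries, 1 library lay far from the other 3 for 5 of the 38 genes, by Dixon's criterion for a single extreme value; chance gives about 1 such group in 20. Library FAC 6 was the extreme one for 4 of them. Ddit3 had 31.3 CPM there, against 22.4 to 22.5 CPM in the other FAC libraries, Asns 74.5 against 60.2 to 61.7 CPM, and Phgdh 188 against 139 to 144 CPM. Sesn2 had 24.7 CPM in FAC 6, against 41.7 to 42.2 CPM in the others. In FAC 7, Edem1 had 559 CPM, against 534 to 538 CPM in the other FAC libraries. FAC 6 also had lower levels of long transcripts and higher levels of short ones than the rest of its group; the part of this in the 4 values was not tested.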

How the results depend on the processing

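No called member changed direction in any alternative run. The calls of T2 against resting eosinophils and of FAC against DFO BMDEs moved least: 9 ATF4 targets rose in T2 eosinophils in every alternative, and 11 or 12 between FAC and DFO. Leaving out 1 library gave 3 to 5 ATF4 targets lower in T2 eosinophils, and for FAC against DFO 0 to 1 ATF4 targets and 0 to 2 ER genes lower; Atf6, the 1 ER gene lower, was lost with length and GC offsets (0 lower, Atf6 at a log2 fold change of -0.04, against -0.43) and with only the 2 arms compared (0 lower). DESeq2, no filter and upper-quartile factors moved the median log2 fold change of all genes between T2 and resting eosinophils by over 0.1, to -0.16, -0.14 and -0.13, against -0.01; relative to these the members' medians stayed above.

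For bone marrow eosinophils against GMPs, 2413 genes were called, against 4055 in DESeq2, 1419 with a replicate block and 747 to 4623 without 1 library. ATF4 targets called higher numbered 3, against 5 in DESeq2, 1 with offsets, 1 without a filter, 1 with the block, 1 with upper-quartile factors and 1 to 5 without 1 library; those lower ran from 0 to 4. ER genes called lower numbered 7, against 12 with offsets and 1 to 10 without 1 library. The block, by numbers that were not found to pair libraries, lost 5 of 13 member calls there and 0 of 33 in T2 eosinophils; BMDE groups share no number, so it was not run.

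For DFO against control BMDEs, 1460 genes were called, against 2937 with offsets, 5982 with only the 2 arms compared and 217 to 4899 without 1 library. With only the 2 arms, 1 ATF4 target and 2 ER genes rose; without 1 library 0 to 1 and 0 to 2 rose, and 0 to 9 and 2 to 16 fell. For FAC against control BMDEs, 761 genes were called, against 1290 in DESeq2, 1680 with offsets, 116 with only the 2 arms and 76 to 2728 without 1 library. Of 7 ATF4 targets 1 was called with only the 2 arms, and 0 to 11 without 1 library. ER genes called higher numbered 5, against 9 in DESeq2, 11 with offsets, 3 without a filter, 0 with only the 2 arms and 0 to 15 without 1 library, and 0 to 1 were lower. Where 1 control was left out, the lone control was assumed to vary like the other groups. The causes of these shifts were not tested. Depth limits Trib3, Nupr1 and Chac1, which lay near or under 1 CPM in some libraries.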

Other observations

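Stress responses of other compartments were followed beside the ER. Over all genes tested, 38.2% were called higher and 37.9% lower in T2 eosinophils, 13% higher and 6.78% lower in bone marrow eosinophils, and 23.5% higher and 24.8% lower between FAC and DFO. In T2 eosinophils 11 of 12 tested genes of the cytosolic heat shock response rose and 0 fell relative to resting eosinophils, with a median log2 fold change of 1.37. In bone marrow eosinophils 0 of 11 rose and 4 fell relative to GMPs, with a median of -0.47. Between FAC and DFO BMDEs 7 of 12 rose and 1 fell, with a median of 0.25. Of 12 genes of the mitochondrial stress response, 8 rose and 1 fell in T2 eosinophils, 0 rose and 3 fell in bone marrow eosinophils, and 5 rose and 1 fell between FAC and DFO, with medians of 0.35, -0.23 and 0.15. Of 12 tested sensors of the unfolded protein response and their regulators, 6 rose and 3 fell in T2 eosinophils, and 1 rose and 2 fell between FAC and DFO. The share that rose in T2 eosinophils lay above that of all genes, and the other shares lay under.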
